A study of Mus musculus with 8 samples.

Results

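Genes of the T cell receptor complex and its first signaling steps were followed in the lungs of untreated mice. They were 9 genes, namely Cd3d, Cd3e, Cd3g, Cd247, Cd4, Cd8a, Cd8b1, Lck and Cd5, taken as every probe that carries one of these symbols in the annotated matrix of the study. The matrix named 20920 genes on 33870 probes, and the 9 genes had 16 of these probes. The lungs came from 4 wild-type and 4 Scgb3a2-transgenic male mice, of strain C57BL/6 and aged 8 to 10 weeks by the sample labels, about 8 weeks by the methods. The transgene is a mouse Scgb3a2 cDNA, which encodes a small protein secreted by airway cells, placed under the human SP-C promoter that is active in alveolar type II cells. The construct was injected into C57BL/6NCr eggs, a single founder line was used, and neither genotype received any agent. RNA of each whole lung was labeled with Cy5 and hybridized to a two-color Agilent array against a pool of mouse lung RNA labeled with Cy3. Every value below is therefore a log2 ratio of 1 lung to the pool, where 0 means equal to the pool, and no array had the dyes swapped, so that a dye effect of a probe stays in its ratio. Whole lung holds blood and resident lymphocytes, and a lower ratio from fewer T cells cannot be told apart from less RNA in each of them.

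A T cell recognizes antigen with a pair of receptor chains that have almost no cytoplasmic part of their own. The signal is carried into the cell by the invariant CD3 delta, epsilon and gamma chains and the zeta chain, which the kinase LCK phosphorylates after the coreceptors CD4 or CD8 have brought it to the complex. CD5, a surface glycoprotein of T cells and of a subset of B cells, dampens this signal.

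The transgenic and wild-type lungs overlapped for all 9 genes. The largest differences between the genotype means were those of Cd3d and Lck, which were 1.36-fold and 1.29-fold higher in transgenic lungs, and neither passed the test. Without wild-type replicate 3 the log2 differences fell from 0.45 to 0.24 for Cd3d and from 0.37 to 0.23 for Lck, without transgenic replicate 1 they were 0.29 and 0.31, and Lck read 0.88 from the processed signals or the deposited matrix and 0.71 with a normexp offset of 0. The spread over the 8 lungs depended on the gene and, for Cd8a, on the probe. By the SD of the brightest probe Cd3d was at the 98.5th percentile of probes tested, Cd4 at the 36.3rd and Cd8a at the 17.1st. The SD of Cd8a was 0.12 with that probe, and 0.23 and 0.28 with its other tested probes. Transgenic replicate 1 held the highest ratio for 7 of the 9 genes, and transgenic replicate 4 was among the 2 lowest lungs for 7 of them.

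Cd3d, Cd3e and Lck are the genes the results turn on, since Cd3d and Lck correlated at 0.94 over the 8 lungs, and Cd3d and Cd3e, its direct neighbor in the genome, at 0.43. Their RefSeq promoter sequences on GRCm38.p6 are therefore given. Each holds the 250 bases before an annotated start of transcription, 5′ to 3′ on the strand of the gene, and Lck has a pair of annotated starts. Capitals mark GGAAGT, a motif bound by factors of the ETS family, or its reverse complement.
Cd3d, chr9:44981536-44981785, plus strand: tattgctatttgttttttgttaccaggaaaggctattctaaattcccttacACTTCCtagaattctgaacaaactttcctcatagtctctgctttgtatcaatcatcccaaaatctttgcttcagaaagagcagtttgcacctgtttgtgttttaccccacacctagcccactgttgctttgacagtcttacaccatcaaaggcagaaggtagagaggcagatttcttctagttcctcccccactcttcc
Cd3e, chr9:45009612-45009861, minus strand: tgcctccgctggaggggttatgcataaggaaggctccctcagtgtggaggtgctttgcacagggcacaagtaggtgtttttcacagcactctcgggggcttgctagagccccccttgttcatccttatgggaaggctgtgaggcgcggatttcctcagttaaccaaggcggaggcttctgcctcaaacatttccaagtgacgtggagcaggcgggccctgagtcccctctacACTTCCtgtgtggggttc
Lck, distal start, chr4:129573642-129573891, minus strand: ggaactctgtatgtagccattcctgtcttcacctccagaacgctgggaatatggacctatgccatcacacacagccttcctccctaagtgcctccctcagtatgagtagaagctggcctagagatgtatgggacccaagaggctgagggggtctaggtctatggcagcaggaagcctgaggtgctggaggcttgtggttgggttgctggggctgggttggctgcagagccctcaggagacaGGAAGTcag
Lck, proximal start, chr4:129558373-129558622, minus strand: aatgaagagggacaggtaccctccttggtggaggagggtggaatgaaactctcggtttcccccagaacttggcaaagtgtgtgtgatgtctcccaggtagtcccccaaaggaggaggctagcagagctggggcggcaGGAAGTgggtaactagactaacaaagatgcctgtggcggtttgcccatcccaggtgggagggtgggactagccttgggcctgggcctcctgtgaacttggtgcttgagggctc
RefSeq windows were matched for 7 of the 9 genes, with 8 windows in all. GGAAGT, searched on both strands, lay in windows of 5 of these 7 genes (Cd247, Cd3d, Cd3e, Cd5 and Lck). It was in 6 of the 8 windows and in 19.7% of 32841 promoter windows of the same length over all genes. Its distance to the start was 199 bases in Cd3d, 18 bases in Cd3e, and 9 and 113 bases at the distal and proximal starts of Lck, so that the position was not shared. Of the other motifs searched on both strands, CANNTG, the E-box, was in windows of 7 of the 7 genes. It was in 7 of the 8 windows and in 66.2% of all windows. TGTGGT, a RUNX motif, was in 1 of the 8 windows (Lck, distal start) and in 14% of all windows. TATAAA was in none of the 8 and in 12.4% of all. Each motif was searched on its own, so matches of different motifs may overlap. The motifs were chosen with these sequences in view, and a match is a description of the letters and not of a bound site. By the same annotation no other gene lies between Cd3g and Cd3d, between Cd3d and Cd3e, or between Cd8b1 and Cd8a.

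The labels were checked first. The probe of Scgb3a2, which does not separate the transgene from the endogenous gene, had a wild-type mean of -0.09 ± 0.51 and a transgenic mean of 0.79 ± 0.33 (SD, n = 4 each). They were 0.88 apart, with an unadjusted limma p of 0.0033 and an adjusted p of 1 over 32653 probes (exact permutation p = 0.0571), and wild-type replicate 3 (0.58) was above transgenic replicate 2 (0.47). The epithelial markers Sftpc, Sftpb, Scgb1a1 and Ager were tested, and 3 of them lack a value in 1 lung each, where the spot was flagged. Transgenic replicate 1 stood apart, lowest of the lungs for Sftpc (0.79), Sftpb (-0.26) and Ager (-1.16), with no value for Scgb1a1. Between 32271 and 34720 probes per array were well above background, 1.72% to 6.46% of the spots were flagged as outliers, and no spot was saturated.

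Of the 16 probes, 13 were well above background in the lung channel on at least 4 of the 8 arrays and were tested, and 12 of these 13 were so on all 8. All 9 genes had a tested probe, and 5 genes had only 1 probe. Where a gene had several, the brightest stands for it. The probes left out of the test were the second probe of Cd3e (well above background on 3 arrays), the second of Cd4 (on 1 array) and the fourth of Cd247 (on 0 arrays).

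**Figure D1:**
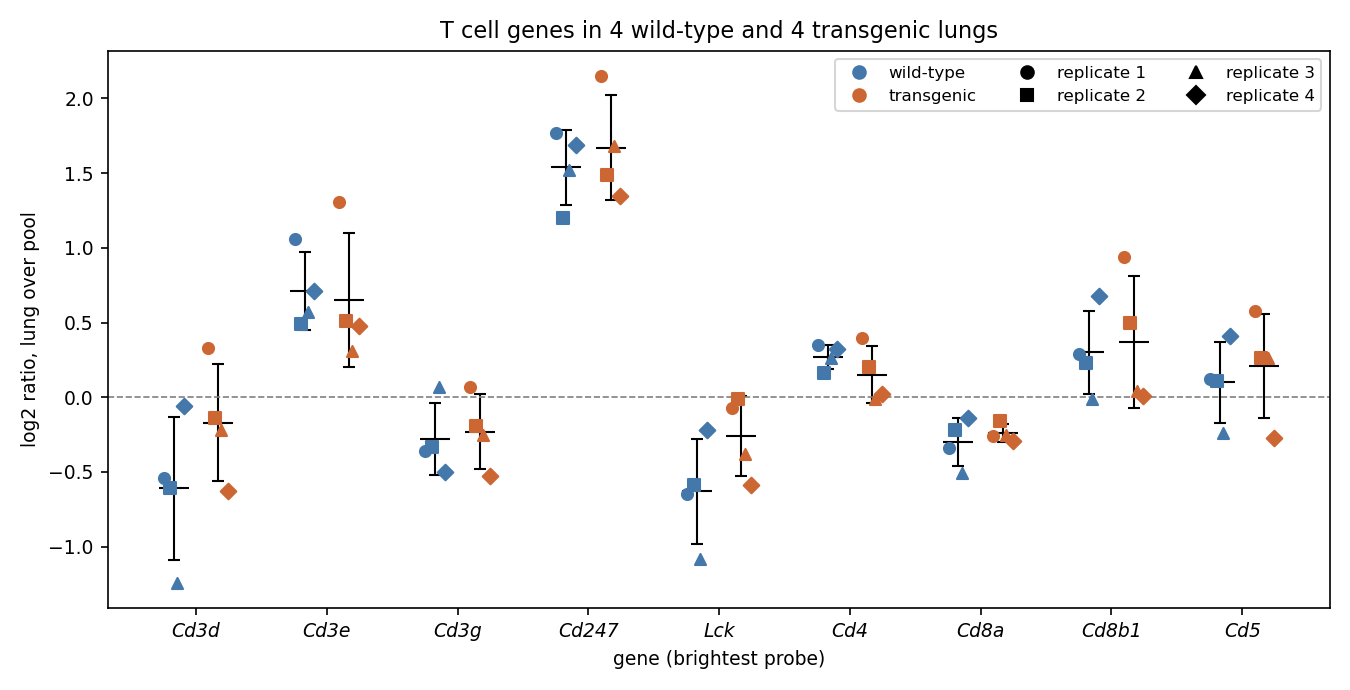
Log2 ratio of each lung to the pool (vertical axis) for the brightest probe of the 9 T cell genes (horizontal axis), with wild-type lungs in blue, transgenic lungs in orange, a marker shape for each replicate number, and black bars for the mean ± SD of 4 lungs. The genotypes overlap for every gene, and transgenic replicate 1 (orange circle) is the highest lung for 7 of the 9.

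The receptor complex came first. Cd3d, the delta chain, read -0.54, -0.61, -1.24 and -0.06 in wild-type replicates 1 to 4 and 0.33, -0.14, -0.22 and -0.63 in transgenic replicates 1 to 4. All wild-type lungs were below the pool, and the lowest transgenic lung was lower than 3 of the 4 wild-type lungs. The means were -0.61 ± 0.48 and -0.17 ± 0.39 (SD, n = 4 each), a difference of 0.45 with a standard error of 0.25 and a 95% interval from -0.10 to 1.00. The limma p was 0.0900 unadjusted and 1 after Benjamini-Hochberg adjustment over all probes, and the exact permutation test, two-sided, gave p = 0.286 where 0.0286 is the least it allows with 4 against 4. Cd3d spread more than most of the array: its SD over 8 lungs was 0.47, at the 98.5th percentile of the tested probes.

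Cd3e, the epsilon chain that pairs with both delta and gamma, had ratios of 1.06, 0.49, 0.57 and 0.71 in wild-type and 1.31, 0.51, 0.31 and 0.48 in transgenic replicates 1 to 4. Every lung was above the pool, and replicate 1 was the highest of each genotype. The means were 0.71 ± 0.26 and 0.65 ± 0.45 (SD, n = 4 each), and the difference of -0.05 (95% interval -0.52 to 0.41) had a limma p of 0.808 unadjusted and 1 adjusted (exact permutation p = 0.8). The same interval allows changes in either direction and does not show that the levels were equal. The dimmer Cd3e probe, outside the test, lay between -0.11 and 0.17.

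Cd3g, the gamma chain, gave -0.36, -0.33, 0.07 and -0.50 in wild-type and 0.07, -0.19, -0.25 and -0.53 in transgenic replicates 1 to 4. The ranges coincided almost fully. The difference of 0.05 (95% interval -0.28 to 0.39, limma p = 0.730, adjusted p = 1, exact permutation p = 0.743) was smaller than the SD of either genotype, 0.24 and 0.25. Wild-type replicate 3, the lowest lung for Cd3d, was level with the highest for Cd3g.

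Cd247, the zeta chain with the most phosphorylation motifs of the complex, had ratios of 1.77, 1.20, 1.52 and 1.69 in wild-type and 2.15, 1.49, 1.68 and 1.35 in transgenic replicates 1 to 4. The brightest probe was above the pool in all 8 lungs, and 3 of the 4 transgenic lungs lay within the wild-type range. The difference was 0.12 (95% interval -0.28 to 0.52, limma p = 0.506, adjusted p = 1, exact permutation p = 0.629). The second probe of the same transcript disagreed on the ratio to the pool, with a mean of -0.16 over 8 lungs against 1.61, and their correlation over the lungs was 0.64. A dimmer probe, for another transcript of the gene, had a mean of -0.37 and did not follow the brightest (r = -0.22). The genotype differences of these other probes were 0.22 and 0.20, with unadjusted limma p of 0.147 and 0.139, so that all 3 tested probes were on the same side without passing.

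The receptor chains that these proteins accompany were hardly measured. Of 11 symbols of receptor chain genes and gene segments, 3 were on the array and 2 were tested. Tcrb-J, joining segments of the beta chain, differed by 0.05 between the genotypes (limma p = 0.688, adjusted p = 1, exact permutation p = 0.657) and Tcrg-V2, a gamma variable segment, by 0.00 (limma p = 0.994, adjusted p = 1), while Tcra was well above background on 0 of 8 arrays.

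The coreceptors followed. Cd4, the coreceptor of helper T cells that is also found on some mouse dendritic cells, read 0.35, 0.16, 0.26 and 0.32 in wild-type and 0.40, 0.20, -0.01 and 0.02 in transgenic replicates 1 to 4. Transgenic replicates 3 and 4 were below every wild-type lung and replicate 1 was above all of them. The difference was -0.12 with a standard error of 0.11 (95% interval -0.36 to 0.11, limma p = 0.303, adjusted p = 1, exact permutation p = 0.286), and Cd4 was with Cd3e one of the 2 genes with the lower mean in transgenic lungs.

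Cd8a, the alpha chain of the coreceptor of cytotoxic T cells, had -0.34, -0.22, -0.51 and -0.14 in wild-type and -0.26, -0.16, -0.25 and -0.29 in transgenic replicates 1 to 4. All 8 lungs were below the pool, and the transgenic lungs lay inside the wild-type range. The brightest probe differed by 0.06 (95% interval -0.15 to 0.28, limma p = 0.569, adjusted p = 1, exact permutation p = 0.571), the other probes by 0.20 and 0.29 (unadjusted p of 0.185 and 0.0949). The probes of Cd8a correlated at 0.70 and 0.61 with the brightest over 8 lungs. They placed transgenic replicate 4 differently, among the lower lungs with the brightest probe (-0.29) and highest of the 8 with the dimmest (0.29).

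Cd8b1, the beta chain of the same coreceptor, read 0.29, 0.23, -0.01 and 0.68 in wild-type and 0.94, 0.50, 0.04 and 0.01 in transgenic replicates 1 to 4. The transgenic lungs fell into a high pair and a low pair on both sides of the wild-type mean of 0.30. The difference of 0.07 (95% interval -0.40 to 0.54, limma p = 0.737, adjusted p = 1, exact permutation p = 0.743) was far inside the transgenic SD of 0.44.

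Lck, the kinase of the Src family that starts the signal, gave -0.65, -0.59, -1.08 and -0.22 in wild-type and -0.07, -0.01, -0.38 and -0.59 in transgenic replicates 1 to 4. No lung was above the pool, and 3 of the 4 wild-type lungs were below 3 of the 4 transgenic ones. The means were -0.63 ± 0.35 and -0.26 ± 0.27 (SD, n = 4 each), a difference of 0.37 with a standard error of 0.18 and a 95% interval from -0.04 to 0.78. Lck had the smallest p of the 9 genes, 0.0668 in limma unadjusted, with an adjusted p of 1 and an exact permutation p of 0.171.

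Cd5, the inhibitory receptor, read 0.12, 0.11, -0.24 and 0.41 in wild-type and 0.58, 0.26, 0.26 and -0.27 in transgenic replicates 1 to 4. Each genotype had 1 lung below the pool, and these were wild-type replicate 3 and transgenic replicate 4, hybridized on the same slide. The difference was 0.11 (95% interval -0.30 to 0.52, limma p = 0.561, adjusted p = 1, exact permutation p = 0.657).

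**Figure D2:**
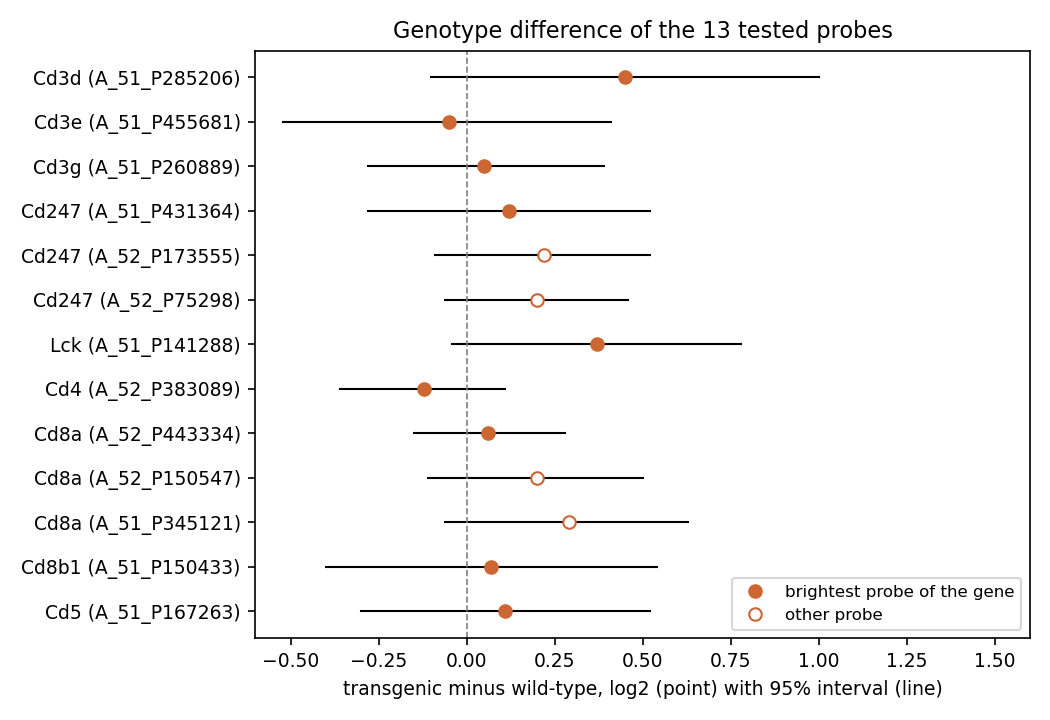
Difference of the genotype means, transgenic minus wild-type, on the log2 scale (horizontal axis) for the 13 tested probes (vertical axis, gene and probe). Lines are the 95% interval of a limma fit that also took the dim probes, and filled points are the brightest probe of a gene. All 13 intervals include 0, and 11 of the 13 points lie above 0, up to 0.45 for Cd3d, while without transgenic replicate 1 the difference of 6 of the 9 genes was below 0.

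In all, 0 of the 9 genes had an unadjusted limma p under 0.05, against 2.09% of the 32653 probes tested, and after adjustment 0% of all probes passed. With groups not overlapping there were again 0 of 9, against 1.97% of all probes. The mean was higher in transgenic lungs for 7 genes and lower for 2, where 50.4% of all probes were higher, and the median difference was 0.07 against 0.00 for all probes. Transgenic replicate 1 decided this count: without it the higher mean was transgenic for 3 genes and wild-type for 6, and the median fell to -0.04. Without wild-type replicate 3 the split was 4 to 5 and the median 0.00, and with each array centered on its median in place of loess it was 5 to 4 with a median of 0.00. Lck and Cd3d were higher in transgenic lungs in every alternative run, from 0.23 to 0.88 and from 0.24 to 0.63.

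Against the pool, Cd3e and Cd247 were above 0 in all 8 lungs and Lck and Cd8a below 0 in all 8. By the methods the pool held equal amounts of each sample, and without a dye swap the dye effect of a probe and the content of the pool cannot be told apart. The label names it only as pooled whole lung, and since ratios of equal parts of these lungs would center near 0 without a dye effect, a value above or below the pool is read here only as a ratio to it. The difference between genotypes, with all lungs in Cy5, does not depend on this.

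Each of the 4 slides carried 1 lung of either genotype, so the genotypes could be compared within a slide. The transgenic lung was above its slide partner for Cd3d on slides 1 to 3, by 0.61, 0.87 and 0.47, and below it on slide 4, with -0.15. Lck behaved the same way, with 0.48, 0.58 and 0.58 on slides 1 to 3 and -0.16 on slide 4. With the slide as a block the differences stayed 0.45 and 0.37, their standard errors were 0.15 and 0.14, and the unadjusted limma p was 0.0180 for Cd3d and 0.0244 for Lck. Both adjusted p were 1, and no other gene of the 9 came under 0.05 in that fit, in which 3.71% of all probes did.

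Slide 4, with wild-type replicate 4 and transgenic replicate 3, had the transgenic lung lower for all genes but Cd3g, where it was 0.25 higher. The widest gap there was Cd8b1, with -0.64. The slides were scanned on 2 days. Within the first day the genotypes differed by 0.74 for Cd3d and 0.53 for Lck, and within the second by 0.16 and 0.21. With the scan day as a block the unadjusted limma p was 0.0902 for Cd3d and 0.0494 for Lck, and both adjusted p were 1, where 2.44% of all probes came under 0.05. With the replicate number as a block 0 of the 9 did, against 2.71% of all probes.

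How the genes varied together was then examined across the 8 lungs. By rank among the lungs, averaged over the 9 genes, transgenic replicate 1 came highest at 7.44 of 8, then wild-type replicate 4 at 6.11, transgenic replicate 2 at 5.56 and wild-type replicate 1 at 4.56. The lower lungs were transgenic replicate 3 at 3.89, wild-type replicate 2 at 3.44, wild-type replicate 3 at 3.00 and transgenic replicate 4 at 2.00. Transgenic lungs thus stood at both ends of the order, with wild-type replicate 3 lowest of all lungs for 4 genes and transgenic replicate 4 and transgenic replicate 3 for 2 each.

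Cd3e, set as the reference of the family, was compared with the other 8 genes. Its correlation was 0.84 with Cd4 (exact permutation p = 0.0113, adjusted p = 0.0741 over 8 relations), and the lungs took the same order for both genes, with a Spearman's rho of 1.00 (exact permutation p = 4.96e-05, the smallest that 8 lungs can give, adjusted 0.000397). With Cd247 r was 0.79 (exact permutation p = 0.0185, adjusted 0.0741, rho 0.74 with adjusted p = 0.183) and with Cd8b1 0.71 (exact permutation p = 0.0495, adjusted 0.132, rho 0.64 with adjusted p = 0.256). The other 5 relations were weaker, with r of 0.49 for Cd5, 0.43 for Cd3d, 0.33 for Cd3g, 0.24 for Lck and -0.08 for Cd8a, none with an adjusted p below 0.402 by exact permutation. Their rho ran from -0.14 for Cd8a to 0.52 for Cd5, none with an adjusted p below 0.393.

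Without transgenic replicate 1 and wild-type replicate 1, the lungs farthest from the median of Cd3e, r was 0.89 for Cd4, 0.65 for Cd8b1 and 0.12 for Cd247, so that the relation with Cd247 rested on those lungs. Without transgenic replicate 1 alone r was 0.83 for Cd4, 0.51 for Cd247 and 0.37 for Cd8b1. Within genotypes r was 0.90 for Cd4, 0.83 for Cd247 and 0.72 for Cd8b1, and from -0.06 (Cd8a) to 0.55 (Cd3d) for the other 5. Within scan days it was 0.85 for Cd4, 0.77 for Cd247 and 0.91 for Cd8b1, and 4 of the 5 weaker relations were closer there, with 0.92 for Cd5, 0.75 for Cd3d, 0.66 for Lck, 0.57 for Cd8a and 0.21 for Cd3g. The median over the 8 relations was 0.46, and 0.02 without transgenic replicate 1 alone.

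Cd3d, looked at after its values had been seen, correlated at 0.94 with Lck, 0.91 with Cd5, 0.82 with Cd8b1 and 0.75 with Cd8a, and at 0.25 with Cd4 and 0.00 with Cd3g. Without wild-type replicate 3 and transgenic replicate 1, the outermost lungs for Cd3d, these were 0.89 for Lck, 0.83 for Cd5, 0.65 for Cd8b1 and 0.74 for Cd8a, and within scan days 0.95, 0.90, 0.83 and 0.82. No test is given for a reference chosen in this way. Over all 36 pairs r ran from -0.47 (Cd3g with Cd8a) to 0.94 with a median of 0.51, 12 pairs were above 0.7 and 5 were below 0. All ratios share the pool and each lung its array, which ties the points of every pair.

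**Figure D3:**
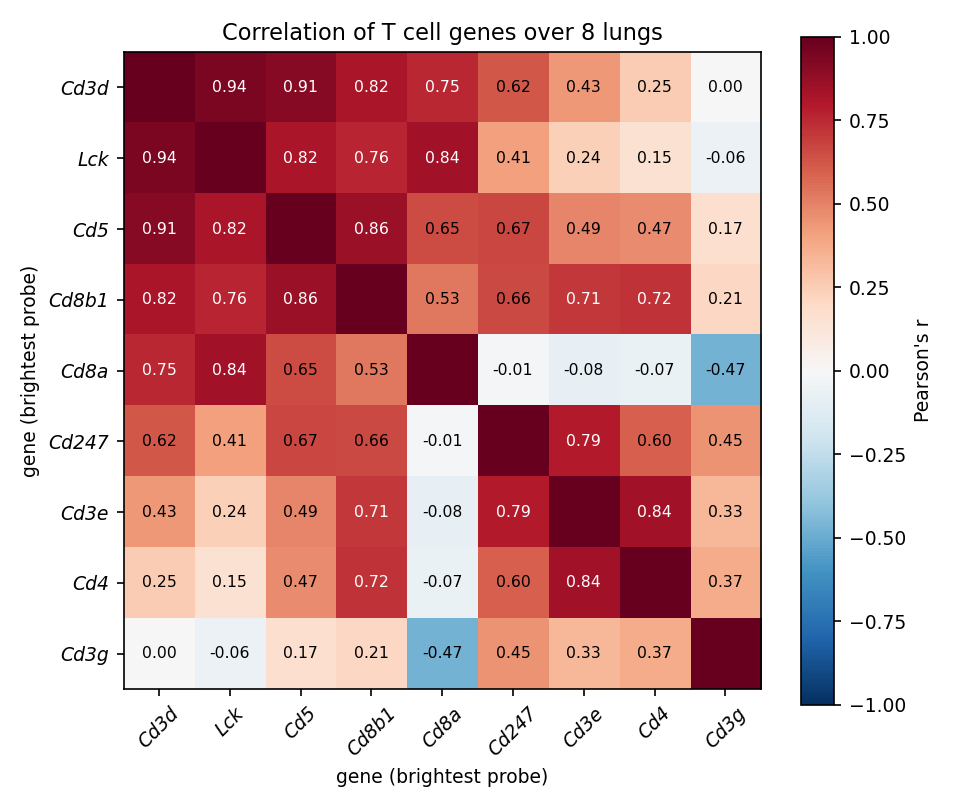
Pearson's r of every pair of the 9 T cell genes over 8 lungs, with genes on both axes (brightest probe, log2 ratio to the pool), the color and the printed number giving r, and the diagonal left without a number. Cd3d, Lck, Cd5 and Cd8b1 form a block with r of 0.76 or more, Cd3e and Cd4 stand together at 0.84, and Cd3g reaches at most 0.45. The groups are not separate, since Cd8b1 also correlates with Cd3e at 0.71 and with Cd4 at 0.72.

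The probes most like Cd3e were then sought among 25885 tested probes of other named genes, by Pearson's r over the 8 lungs and without a test. The 10 highest were Ugt8a (0.990), 4930455C21Rik (0.988), Slc14a2 (0.987), Olfr978 (0.986), Mef2b (0.985), Lpo (0.985), Adap1 (0.984), Bbs9 (0.982), Olfr279 (0.982) and Fbn2 (0.981). None of the 10 is a gene of the T cell lists used here, and both Olfr978 and Olfr279 encode olfactory receptors. After this was seen, the mean of the 610 tested olfactory receptor probes with a value on every array was taken in each lung. It was 0.35, 0.16, 0.33 and 0.22 in wild-type and 0.41, 0.18, 0.17 and 0.27 in transgenic replicates 1 to 4, so that transgenic replicate 1 and wild-type replicate 1 led as they did for Cd3e.

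The correlation with this mean was 0.84 for Cd3e, 0.67 for Cd247, 0.64 for Cd4, 0.46 for Cd3g, 0.32 for Cd8b1, 0.04 for Cd5, 0.03 for Cd3d, -0.18 for Lck and -0.55 for Cd8a. Without transgenic replicate 1 and wild-type replicate 1 it was 0.40 for Cd3e, 0.05 for Cd247, 0.24 for Cd4, 0.30 for Cd3g, -0.39 for Cd8b1, -0.75 for Cd5, -0.75 for Cd3d, -0.73 for Lck and -0.81 for Cd8a. Within scan days all 9 were positive, with 0.92 for Cd3e and Cd5, 0.88 for Cd8b1, 0.87 for Cd247 and Cd4, 0.68 for Cd3d, 0.55 for Lck, 0.44 for Cd3g and 0.34 for Cd8a. These are descriptions of a comparison added after the values were seen. The part of these probes' level in the T cell ratios was not tested. The same search for Cd3d, added after the values were seen, gave among its 10 highest Iffo1 (0.991), Fes (0.987), Nfam1 (0.979), Scnm1 (0.979), Tcirg1 (0.979), Ms4a4b (0.978), Pot1a (0.978), H2-M3 (0.976) and Mlkl (0.972).

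The wider pathway was read from a list of 56 further T cell genes, of which 54 were on the array under that symbol and 53 were tested. The transgenic mean was the higher one for 38 and the lower one for 15, and their median difference was 0.11 against 0.00 for all probes. Without transgenic replicate 1 the split was 34 to 19 and the median 0.08. There were 6 with an unadjusted limma p under 0.05, all higher, where 1.12% of all probes were higher and 0.974% lower at that threshold, and none passed adjustment. Among them were the T cell transcription factor Bcl11b (0.37, limma p of 0.0382), the adhesion receptor Cd2 (0.31, 0.0233), the adaptor Grap2 (0.31, 0.0339) and the GTPase Rhoh (0.27, 0.0489), given as the difference and its unadjusted p. Each had an adjusted limma p of 1, the exact permutation p was 0.0571 for Cd2 and 0.0857 for Bcl11b, Grap2 and Rhoh, and the genotypes overlapped for all 6. The only one of the 53 without overlap was Lef1, a transcription factor of T cells, at 0.22 (p = 0.0674, limma, adjusted p = 1, exact permutation p = 0.0286), which is named here after its values were seen, and 1.97% of all probes did not overlap (1.07% with the transgenic lungs higher). Without transgenic replicate 1 the differences of Cd2, Bcl11b, Grap2, Rhoh and Lef1 were 0.28, 0.25, 0.28, 0.23 and 0.23, with unadjusted limma p of 0.0502, 0.109, 0.0712, 0.101 and 0.0775.

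This count changed with the lungs and the processing. With wild-type replicate 1, 2, 3 or 4 left out it was 5, 1, 4 (3 higher and 1 lower) and 4 in turn. With transgenic replicate 1, 2, 3 or 4 left out it was 2 (1 higher and 1 lower), 0, 3 and 8. It was 1 with median-centering, 0 with the lung channel alone, and 0 with the background model fitted on all spots. Over all probes the count moved as well, from 683 with all lungs. Without wild-type replicate 1, 2, 3 or 4 it was 689, 513, 644 and 1174 in turn. Without transgenic replicate 1, 2, 3 or 4 it was 1075, 485, 614 and 1033. It was 602, 316 and 392 in the 3 processing runs.

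None of the signaling partners tested passed adjustment, and Cd2 and Grap2 (0.31 each) were given above. Zap70, the kinase that binds the phosphorylated CD3 and zeta chains, differed by 0.11 (95% interval -0.12 to 0.34, limma p of 0.358). Trat1, an adaptor that sits with the receptor, differed by 0.11 (limma p of 0.320), the costimulatory receptor Cd28 by 0.04 (p of 0.644), Cd6, a relative of CD5, by -0.09 (p of 0.595) and the surface protein Thy1 by 0.27 (p of 0.238). These 5 had adjusted limma p of 1, and their exact permutation p was 0.229 or more. Trat1 was well above background on 4 of 8 arrays. Thy1 lacked a value in transgenic replicate 3, and without transgenic replicate 1 its difference was 0.00. Lat, the central adaptor, had no probe under that symbol, and Foxp3, which marks regulatory T cells, was well above background on 0 of 8 arrays.

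Markers of other cells were read beside the T cell genes, as the mean per lung of the genes of each list that had a value in all 8. B cell markers (6 genes, with Cd79a, Cd79b and Ms4a1 among them) ranged from -0.48 to 0.09 in wild-type and from -0.25 to 0.47 in transgenic lungs, and 5 of 6 genes had the higher mean in transgenic lungs (4 of 6 without transgenic replicate 1). Ms4a1, the B cell protein CD20, was 0.63 higher (limma p = 0.0298, adjusted p = 1, exact permutation p = 0.114), and 0.45 higher without transgenic replicate 1 (unadjusted limma p of 0.0876). NK cell markers ranged from -0.20 to 0.50 in wild-type and from 0.14 to 0.47 in transgenic lungs over 5 genes, 5 of 6 had the higher transgenic mean with or without transgenic replicate 1, and Klrd1, part of an inhibitory NK receptor, was 0.28 higher (p = 0.0488, limma, adjusted p = 1, exact permutation p = 0.0857).

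The lungs kept a partly common order across lymphocyte lists. Transgenic replicate 1 had the highest mean of 51 of the other T cell genes (0.02) and of the B cell markers (0.47), and wild-type replicate 3 the lowest of both (-0.34 and -0.48) and of the NK markers (-0.20). The epithelial markers ran partly the other way. Sftpc, the surfactant protein of type II cells, read 2.34, 1.47, 3.09 and 1.22 in wild-type and 0.79, 1.74 and 1.74 in transgenic replicates 1 to 3, highest in wild-type replicate 3. Ager, a marker of type I cells, was -1.16 in transgenic replicate 1 and 0.00 to 0.42 in the other 7 lungs. The part of these markers in the T cell values was not tested.

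In the other lists the genotypes overlapped. The markers of lymph node stroma ranged from -0.42 to -0.18 in wild-type and from -0.50 to 0.43 in transgenic lungs over 3 genes, with transgenic replicate 1 at 0.43 and the next lung at -0.18, and with 0 of 4 tested genes at an unadjusted p under 0.05. Thymocyte markers ranged from 0.05 to 0.45 and from 0.01 to 0.29, with Rag2 well above background on 1 array only and 0 of 4 tested genes under 0.05. Markers of gamma-delta T cells ranged from -0.08 to 0.28 and from 0.08 to 0.22 over 2 genes, and dendritic cell markers from -0.43 to 0.05 and from -0.29 to 0.05 over 4, with none under 0.05 in either list. Macrophage markers ranged from -0.88 to -0.45 and from -0.80 to -0.24, and 1 of 5, Siglec5, was 0.28 higher in transgenic lungs without overlap (limma p = 0.0185, adjusted p = 1, exact permutation p = 0.0286). Of all probes 1.07% were higher in transgenic lungs without overlap. Erythroid genes ranged from -0.21 to 1.20 and from -0.02 to 1.98 over 2 genes, highest in transgenic replicate 2, with none under 0.05.

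**Figure D4:**
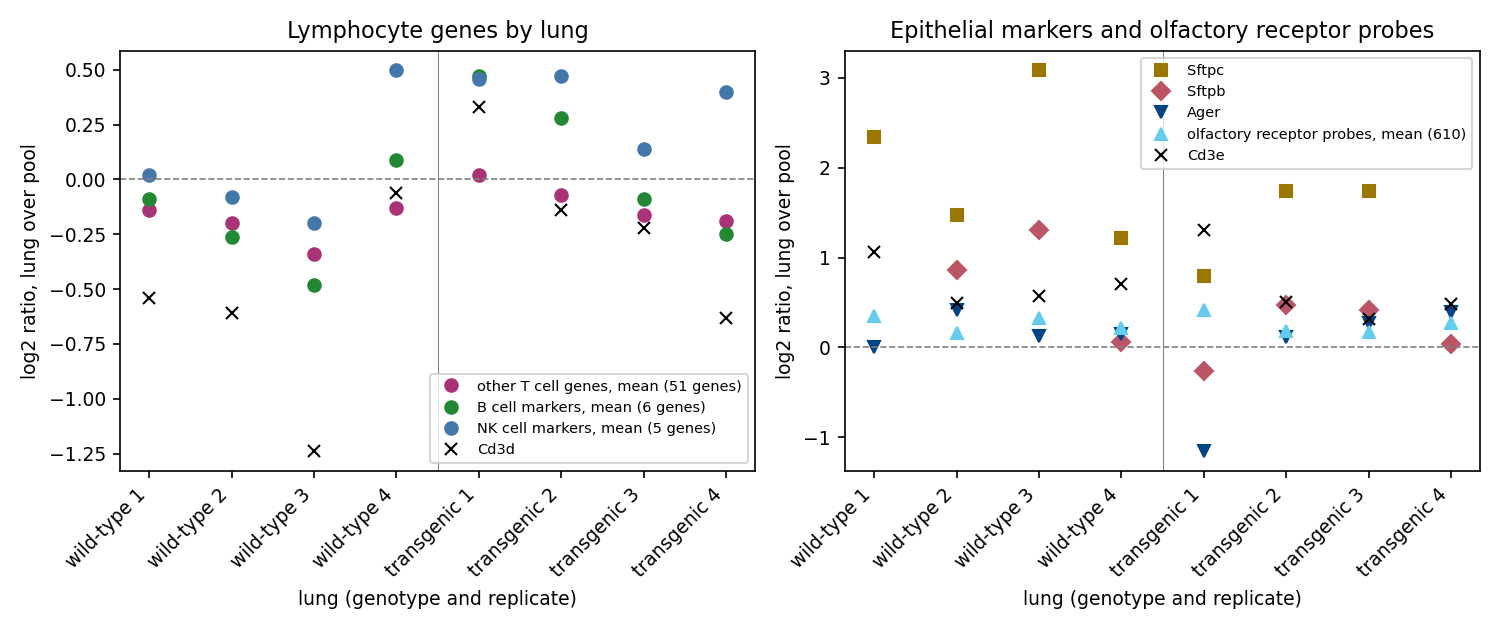
Left, log2 ratio to the pool (vertical axis) in each lung (horizontal axis, genotype and replicate) as the mean of 51 other T cell genes, 6 B cell markers and 5 NK cell markers, with Cd3d as crosses. Right, the epithelial markers Sftpc, Sftpb and Ager (no point where the spot was flagged) and the mean of 610 olfactory receptor probes, with Cd3e as crosses. Transgenic replicate 1 has the highest Cd3d (0.33) and Cd3e (1.31) and the lowest Ager (-1.16).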

How the data were processed

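Total RNA of 8 whole lungs was hybridized to two-color Agilent mouse arrays. For each array the authors deposited Agilent Feature Extraction output (10.10.1.1 per the file headers, 11.0.1.1 per the labels) with raw median signal intensities, local backgrounds and processed intensities of both channels, and flags per spot. A matrix of 40145 probes was deposited as well, in log2, and equals the log2 ratio of the processed signals within 0.001 for 39811 of 39811 probes with a single spot. The methods name GeneSpring GX.

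Groups followed the sample labels. Median signals were corrected by normexp (offset 50, fitted on unflagged spots), control and flagged spots were left out, log2 ratios of Cy5 over Cy3 were normalized by loess (span 0.3) and spots of a probe were averaged, using limma 3.58.1 in R 4.3.3. The test took probes that passed Agilent's background criterion in Cy5 on 4 or more of the 8 arrays (33978 of 41174) and had at least 2 values per genotype (32653 probes). Genotypes were compared by limma's moderated test, two-sided, with Benjamini-Hochberg adjustment over all tested probes, and single genes by exact permutation over the lungs. Correlations were tested by exact permutation over 40320 pairings. The fit was checked on simulated data. The number of arrays, 4 per genotype, limits the precision. Motif counts and figures used Python 3.11.15, pandas 2.3.3 and matplotlib 3.10.9.

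The 9 genes and all gene lists were chosen with earlier results of these data known. The genes named are the 9 genes, the other T cell genes with an unadjusted p under 0.05, a set of named partners (Zap70, Lat, Cd28, Thy1, Cd2, Cd6, Foxp3 and Trat1), the 10 probes most like Cd3e, and markers a result turns on, and a few genes that this rule names are not reported here. The alternatives changed background correction, normalization, channel, filter, variance model, test, blocking and probe choice, took the deposited matrix, or dropped 1 lung at a time.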

Additional observations from a re-analysis of the deposited data

How the results depend on the processing

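No gene of the 9 passed the adjusted threshold in any alternative. The count with an unadjusted limma p under 0.05 was 0 as reported, 1 with normexp offset 0, 2 with the slide as a block, 1 with the scan day as a block, and 0 to 2 when a lung was left out (2 without wild-type replicate 4 or transgenic replicate 4). Calls over all probes rose in these runs too. Of 32653 probes they were 683 as reported, 792 with normexp offset 0, 1211 with the slide block and 796 with the scan day block. They were 1174 of 32362 without wild-type replicate 4 and 1033 of 32515 without transgenic replicate 4. Lck (0.23 to 0.88) and Cd3d (0.24 to 0.63) kept their direction throughout.

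The count of other T cell genes under 0.05 was 6, and 0 with normexp fitted on all spots, 1 with median-centering, 3 with Agilent processed signals, 3 with the authors' matrix, 0 with the lung channel alone, 3 with the methods' t-test and 0 to 8 when a lung was left out. Over all probes it was 683, of which 53.4% were higher, and ran from 316 with the lung channel alone to 1211 with the slide as a block. The higher share was 34.7% with normexp fitted on all spots, 19.9% with median-centering and 28.2% with the lung channel alone. Calls over all probes fell in these runs, to 392, 602 and 316 in turn. They rose to 838 for Agilent processed signals, 836 for the authors' matrix and 864 for the methods' t-test, while the T cell count fell to 3 in each. Both counts rose in the slide block, to 1211 probes and 8 T cell genes.

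Small differences changed sign. Cd3e (-0.05) was 0.08 with normexp fitted on all spots and 0.01 with the lung channel alone, and Cd3g (0.05) was -0.03 with normexp fitted on all spots and -0.05 with median-centering. Cd8b1 (0.07) was -0.02 with median-centering and -0.06 with array weights. When a lung was left out the range was -0.27 to 0.07 for Cd3e, -0.05 to 0.17 for Cd3g, -0.04 to 0.23 for Cd247, -0.01 to 0.12 for Cd8a, -0.12 to 0.20 for Cd8b1 and -0.01 to 0.27 for Cd5.

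The correlation of Cd3e with Cd4 had an adjusted exact permutation p of 0.0472 without background correction, 0.0291 with Agilent processed signals, 0.0299 with the authors' matrix and 0.0127 with flagged spots kept, within a range of 0.0127 to 0.138 over all alternatives. That with Cd247 had 0.0472, 0.0291 and 0.0299 in the first 3 of these, within a range of 0.00317 to 0.906. With the mean over all tested probes of a gene, r with Cd247 was 0.56 (adjusted exact permutation p = 0.402). The correlation of Cd3e with Lck was -0.09 with normexp fitted on all spots. That with Cd8a was 0.05 without background correction, 0.50 with median-centering and -0.79 with the lung channel alone. Those with Cd247 and Cd8b1 were 0.30 and 0.12 with the lung channel alone. Leaving out a lung gave -0.06 to 0.56 for Cd3d, -0.19 to 0.50 for Cd3g, -0.16 to 0.40 for Lck, -0.35 to 0.04 for Cd8a and 0.02 to 0.59 for the median of the 8 correlations. With Cd3d in place of Cd3e, added after seeing the data, the median was 0.69. The cause of these changes was not tested.

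Lungs that share a replicate number deviated from their genotype mean together at r of 0.32, 0.25, -0.08 and -0.21. Lungs that share a slide did so at r of 0.30, 0.32, 0.25 and 0.08 on slides 1 to 4. Replicates 1 and 2 of both genotypes also shared a slide, so the numbers are not read as a pairing of their own. With the number as a replicate block, 0 of the 9 genes and 6 of the 53 other T cell genes tested were under 0.05. Of all 32653 probes 2.71% were under 0.05 in that fit.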
